A study of Homo sapiens with 12 samples.

Results

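Transcripts of 7 human aldo-keto reductase genes, AKR1A1, AKR1B1, AKR1B10, AKR1B15, AKR1C1, AKR1C2 and AKR1C3, were followed in RT4 cells. They were chosen by name, with earlier results of these libraries known, and matched by Ensembl identifier. All 7 were found, among 61860 genes in the count table of the ITGB4 experiment and 62700 in that of the cisplatin experiment. Because the same contrasts were known when the genes were chosen, their values are given as a description with no p-value.

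RT4 is an established human line of bladder cancer cells. In the first experiment, cells grown in McCoy's 5A medium carried either an empty Flag vector (3 libraries) or a plasmid for Flag-tagged ITGB4, the integrin beta 4 subunit (3 libraries), and the labels name a transfection without giving its duration. In the second, wild-type cells grown in MEM were either parental and given PBS (3 libraries) or cisplatin-resistant and given cisplatin, a DNA-crosslinking platinum drug (3 libraries), with no dose or time. Resistance and drug exposure therefore cannot be told apart, and the labels do not say whether the resistant line is a clone. The parental libraries are identified by inference from their table and are called a, b and c. A group label of library 2 in the vector and plasmid groups names ITGB5, and that of library 3 names ITGB6, while the titles name ITGB4. Nothing states that replicates were separate cultures, so the spread between libraries may be technical.

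Aldo-keto reductases are soluble enzymes that use NADPH to reduce aldehydes and ketones to alcohols. AKR1A1 and AKR1B1 are general aldehyde reductases, AKR1B10 is an efficient reductase of retinal and of lipid aldehydes, and the AKR1C enzymes act on ketosteroids, prostaglandins and carbonyl drugs. Several of them, AKR1B10 and the AKR1C genes above all, are known targets of NRF2 (gene NFE2L2), a transcription factor that KEAP1 holds in check until oxidants or electrophiles release it.

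Total counts were 22701466 to 33352045 per library in the plasmid experiment and 31824582 to 38199946 in the cisplatin experiment. ITGB4 itself was at 869 ± 10.97 CPM (counts scaled to sequencing depth with TMM factors; mean ± SD, n = 3 libraries per group throughout) with vector and 1427 ± 53.6 CPM with the plasmid. Of 16 urothelial markers, 14 were at 1 CPM or more in every library of both experiments, while KRT20 was at 0 in all and UPK1A under 1 CPM. All 5 immune and all 3 liver markers were under 1 CPM in every library. The summed level of 6 fibroblast markers was 48.1 to 52.3 CPM with vector and 24.4 to 26.0 CPM with the plasmid, carried by COL1A1 and COL3A1, and 11.5 to 12.02 CPM in parental and 4.43 to 5.73 CPM in resistant libraries, carried by COL1A1. Of 3 endothelial markers, the sum was 2.19 to 2.28 against 1.5002 to 1.69 CPM and 1.07 to 1.64 against 0.683 to 2.51 CPM. The part of these markers in the results below was not tested. The urothelial sum was 5610 to 5802 CPM with vector and 7225 to 7706 CPM with the plasmid, and 8337 to 8388 against 8403 to 9646 CPM in the cisplatin experiment. In RNA from bulk cells, fewer cells of a kind and less RNA per cell cannot be told apart.

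The members stand in 3 places of the GRCh38 assembly (GENCODE 29). AKR1A1 (ENSG00000117448) is at chr1:45550543-45570049 on the plus strand. The AKR1B genes share a stretch of chromosome 7: AKR1B1 (ENSG00000085662) at chr7:134442350-134459284 on the minus strand, AKR1B10 (ENSG00000198074) at chr7:134527592-134541408 and AKR1B15 (ENSG00000227471) at chr7:134549136-134579875, both on the plus strand. The AKR1C genes share a stretch of chromosome 10: AKR1C1 (ENSG00000187134) at chr10:4963253-4983283 on the plus strand, AKR1C2 (ENSG00000151632) at chr10:4987400-5018031 on the minus strand and AKR1C3 (ENSG00000196139) at chr10:5035354-5107686 on the plus strand. An antisense gene lies opposite AKR1C2 and small nucleolar RNA genes lie opposite AKR1C2 and AKR1C3, and none of them shares an exon base with a member.

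Reads can only be assigned to these genes where their sequences differ. The coding sequences of AKR1C1 and AKR1C2 were 98.0% identical, with 19 mismatches over 969 bases and an identical run of 186 bases. Of all 100-base windows of the AKR1C1 coding sequence, 18.85% occurred unchanged in an AKR1C2 transcript, and of 150-base windows 4.63%. AKR1C3 was 91.4% identical to AKR1C1 and 91.0% to AKR1C2. The 90 coding bases 73 to 162, from exons 1 and 2, are shown for the 3 genes. No ungapped stretch of that length held more mismatches between AKR1C1 and AKR1C2, so they differ more there than over the whole coding sequence. Capitals mark bases that differ from AKR1C1, 10 in AKR1C2 and 11 in AKR1C3. The sequences come from GENCODE 29 transcripts, 5′ to 3′ along each coding strand. In AKR1C1 they span chr10:4963517-4963528 and chr10:4965914-4965991, in AKR1C2 chr10:5003752-5003763 and chr10:5001604-5001681 on the minus strand, and in AKR1C3 chr10:5094517-5094528 and chr10:5096410-5096487.
AKR1C1: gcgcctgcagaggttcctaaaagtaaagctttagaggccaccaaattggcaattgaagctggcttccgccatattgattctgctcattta
AKR1C2: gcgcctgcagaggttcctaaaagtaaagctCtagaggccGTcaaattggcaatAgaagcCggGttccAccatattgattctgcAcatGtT
AKR1C3: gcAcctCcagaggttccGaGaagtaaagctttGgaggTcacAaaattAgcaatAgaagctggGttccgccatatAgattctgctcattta

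Within the AKR1B group, AKR1B10 and AKR1B15 were 85.1% identical over their coding sequences, and 2.0% of the 100-base windows of AKR1B10 occurred in an AKR1B15 transcript. AKR1B1 and AKR1B10 were 76.1% identical and shared no window of 50 bases. The 90 coding bases 848 to 937 of AKR1B10, from exons 9 and 10, are shown with their counterparts. No ungapped stretch of that length held more mismatches between AKR1B10 and AKR1B15, so they differ more there than over the whole coding sequence. A run identical between AKR1B10 and AKR1B15 ends inside these bases. Capitals mark bases that differ from AKR1B10, 11 in AKR1B15. In AKR1B1 there were 29 differences, which include gaps of the alignment that are not drawn. Some capitals of AKR1B1 are bases without a counterpart in AKR1B10, so its letters do not all line up with those above. The AKR1B10 bases span chr7:134538957-134539017 and chr7:134541047-134541075, those of AKR1B15 chr7:134577726-134577786 and chr7:134579507-134579535, and those of AKR1B1 chr7:134445238-134445298 and chr7:134442742-134442770 on the minus strand.
AKR1B10: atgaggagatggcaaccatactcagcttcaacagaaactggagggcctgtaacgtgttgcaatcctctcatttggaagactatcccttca
AKR1B15: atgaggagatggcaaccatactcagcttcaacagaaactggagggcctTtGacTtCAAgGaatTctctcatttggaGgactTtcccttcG
AKR1B1: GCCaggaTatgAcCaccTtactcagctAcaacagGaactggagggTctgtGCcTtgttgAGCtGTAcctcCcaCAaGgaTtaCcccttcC

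AKR1B1, aldose reductase, makes sorbitol from glucose in the polyol path and also acts on lipid aldehydes and prostaglandins. In vector libraries 1 to 3 it was at 4623, 4815 and 4683 CPM, and in plasmid libraries 1 to 3 at 4705, 4559.9 and 4519 CPM. The groups overlapped, with means of 4707 ± 98.0 and 4595 ± 98.1 CPM, and AKR1B1 ranked 3 of 16950 tested genes by mean CPM, a level that does not correct for gene length. The log2 fold change was -0.03 ± 0.022 (± is an approximate standard error of the fit) and was not called at an adjusted p under 0.05 by edgeR's quasi-likelihood test with Benjamini-Hochberg adjustment, the rule used for every call. It was called lower with library totals as the only scaling (-0.07), with a filter at 1 CPM (-0.05) and without plasmid library 1 (-0.05).

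In the cisplatin experiment AKR1B1 was at 5630.3, 5583 and 5728 CPM in parental libraries a to c and at 1847, 1741 and 1673 CPM in resistant libraries 1 to 3. Every resistant library was far below every parental library. The means of 5647 ± 74.0 and 1754 ± 87.9 CPM differed 3.22-fold, with a log2 fold change of -1.69 ± 0.035.

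AKR1B10, which reduces retinal to retinol and clears reactive carbonyls, had opposite signs in the 2 experiments. It was at 62.7, 60.3 and 60.7 CPM with vector and at 169.97, 166 and 166 CPM with the plasmid. The groups were far apart, at 61.2 ± 1.27 and 167 ± 2.24 CPM, a 2.73-fold higher mean with the plasmid and a log2 fold change of 1.45 ± 0.030. It was the sole member called higher with the plasmid.

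In parental libraries AKR1B10 was at 173, 179.6 and 170.15 CPM, and in resistant libraries at 38.3, 39.0 and 37.6 CPM. The resistant mean of 38.3 ± 0.699 CPM was 4.56-fold below the parental mean of 174 ± 4.80 CPM, and the log2 fold change of -2.19 ± 0.048 was the farthest from 0 of the members in that comparison. The difference between the experiments' fold changes was not tested, and each has its own controls, medium and table.

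AKR1B15, the neighbour of AKR1B10 on the same strand, was barely detected. It had 12, 10 and 11 counts with vector and 8, 7 and 16 with the plasmid, overlapping groups that did not pass the filter on low counts. In parental libraries it had 47, 34 and 29 counts and in resistant libraries 23, 20 and 14. Those groups did not overlap, and the log2 fold change was -1.002 ± 0.37. That call was lost in 6 of 10 alternatives, among them leaving out parental library a (-0.81) or b (-1.02) or resistant library 2 (-1.01) or 3 (-0.79). Summed with AKR1B15, AKR1B10 kept log2 fold changes of 1.45 ± 0.030 and -2.18 ± 0.048.

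AKR1A1, an aldehyde reductase with glucuronate among its substrates, was the member with the smallest level after AKR1B15 in vector, plasmid and parental libraries. It was at 42.1, 44.8 and 42.3 CPM with vector and at 36.9, 32.8 and 32.6 CPM with the plasmid, means of 43.1 ± 1.51 and 34.1 ± 2.45 CPM with a log2 fold change of -0.34 ± 0.049. In parental libraries it was at 64.7, 61.4 and 68.3 CPM and in resistant libraries at 89.6, 85.95 and 79.2 CPM, means of 64.8 ± 3.42 and 84.9 ± 5.24 CPM with a log2 fold change of 0.39 ± 0.057. Groups were apart in both experiments, and it was the sole member higher in resistant than in parental cells.

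**Figure D1:**
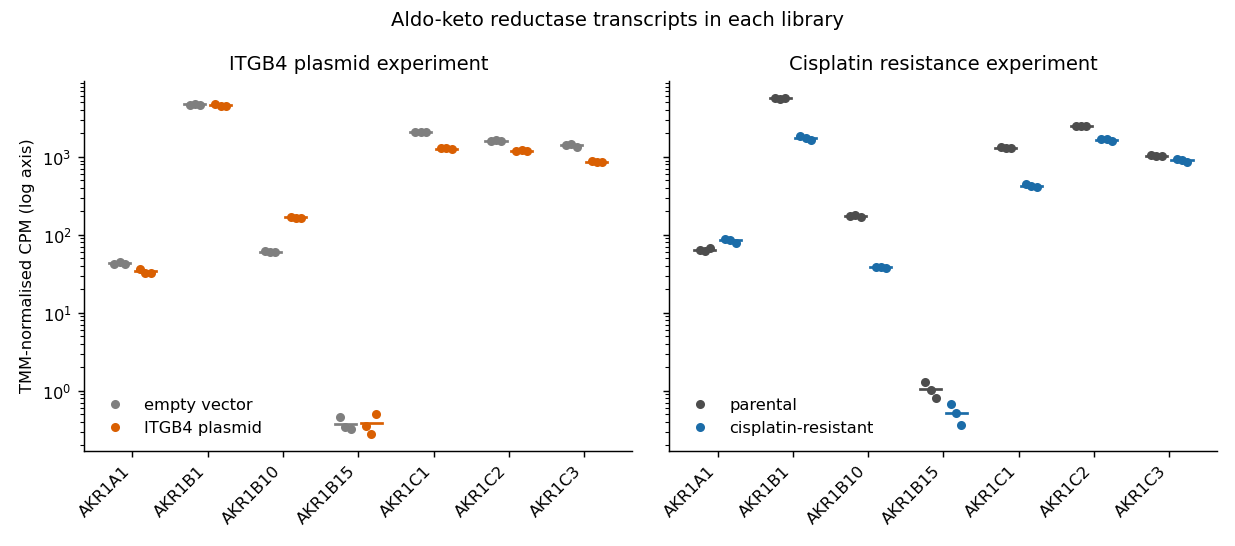
Each point is a library and each bar a group mean of TMM-normalised CPM on a log axis, for the 7 genes in the plasmid experiment (left) and the cisplatin experiment (right). AKR1B10 lies higher with the plasmid (167 against 61.2 CPM) and lower in resistant cells (38.3 against 174 CPM), and AKR1B15 lies near 1 CPM or below.

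AKR1C1, which inactivates progesterone by reducing it, was lower in both experiments. It was at 2085.5, 2109 and 2087 CPM with vector and at 1292, 1286 and 1251 CPM with the plasmid. The 2 groups did not overlap, with means of 2094 ± 13.2 and 1277 ± 22.1 CPM, a 1.64-fold difference, and a log2 fold change of -0.71 ± 0.021. In parental libraries it was at 1330.1, 1301 and 1312 CPM and in resistant libraries at 446, 421 and 407.5 CPM. The resistant mean of 425 ± 19.6 CPM was 3.09-fold below the parental mean of 1314 ± 14.7 CPM (log2 fold change -1.63 ± 0.038).

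AKR1C2, which inactivates dihydrotestosterone, was lower by less. It was at 1588.5, 1642 and 1593 CPM with vector and at 1184, 1229 and 1178.5 CPM with the plasmid, means of 1608 ± 29.6 and 1197 ± 27.9 CPM (log2 fold change -0.43 ± 0.024). In parental libraries it was at 2482, 2491 and 2514 CPM and in resistant libraries at 1699, 1693 and 1609 CPM, means of 2496 ± 16.5 and 1667 ± 50.1 CPM (log2 fold change -0.58 ± 0.031). Neither pair of groups overlapped.

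AKR1C3 makes testosterone from androstenedione and prostaglandin F from prostaglandins H and D. It was at 1419.5, 1448 and 1346 CPM with vector and at 889, 849.7 and 872 CPM with the plasmid, means of 1405 ± 52.4 and 870.3 ± 19.7 CPM with a log2 fold change of -0.69 ± 0.028. In parental libraries it was at 1047, 1018 and 1037.5 CPM and in resistant libraries at 940.1, 915 and 856 CPM, means of 1034 ± 14.6 and 904 ± 43.1 CPM with a log2 fold change of -0.19 ± 0.037. The groups were apart in both experiments, but the second difference was small, and its call was lost when libraries were scaled by their totals alone (-0.03). With that scaling the median log2 fold change of all genes moved from 0.0181 to 0.182, and relative to that median AKR1C3 stood at -0.21 under either scaling.

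Because AKR1C1 and AKR1C2 share most of their coding sequence, their counts were also summed. AKR1C1 plus AKR1C2 gave log2 fold changes of -0.58 ± 0.020 with the plasmid and -0.86 ± 0.030 in resistant cells. With AKR1C3 and AKR1C4 added, these were -0.61 ± 0.020 and -0.69 ± 0.030. The sums were lower in both experiments, as were AKR1C1, AKR1C2 and AKR1C3 each. AKR1C4, the liver form on the same stretch of chromosome 10, had 0 to 3 counts per library in the plasmid experiment and 0 to 7 in parental libraries, and it was at 0 in the 3 resistant libraries.

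Counted over the whole set, 1 of 6 tested members was called higher and 4 lower with the plasmid, where 72.2% of all tested genes were called, 36.5% higher and 35.7% lower. In the cisplatin experiment 1 of 7 was called higher and 6 lower, where 54.5% of all genes were called, 26.8% higher and 27.7% lower. Libraries of the 2 groups did not overlap for 5 of the 6 tested members with the plasmid and for 7 of 7 in the cisplatin experiment, where 74.5% and 60.8% of all tested genes did not overlap. Nothing is read from these counts, since the members were chosen with the contrasts known.

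**Figure D2:**
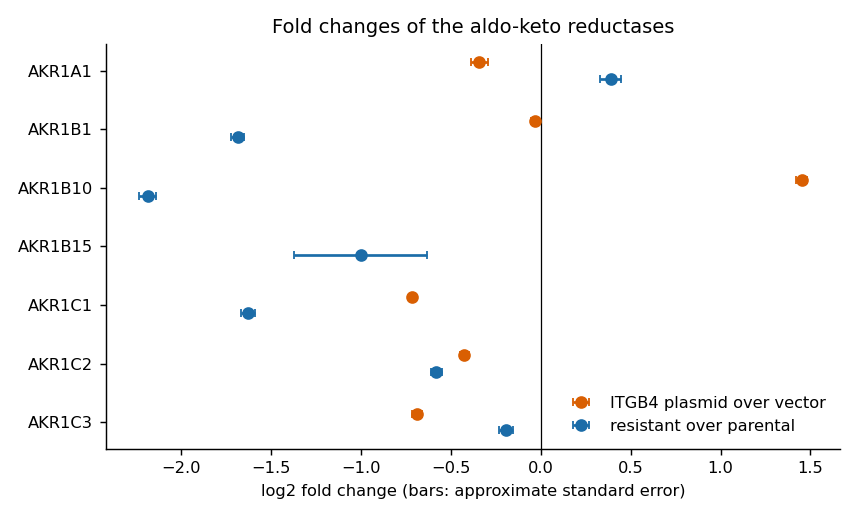
Log2 fold changes of each gene, plasmid over vector (orange) and resistant over parental (blue), with bars of 1 approximate standard error. AKR1B10 lies at 1.45 and -2.19, AKR1B1 at -0.03 and -1.69, and the 3 AKR1C genes lie below 0 in both; AKR1B15 was tested in the cisplatin experiment alone.

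Together the 7 genes held 1.00% ± 0.0138 of all counts with vector and 0.802% ± 0.0115 with the plasmid. In the cisplatin experiment they held 1.01% ± 0.00770 in parental and 0.515% ± 0.0179 in resistant libraries. AKR1B1 alone took 47.5% ± 0.345 of the members' counts with vector and 56.4% ± 0.369 with the plasmid, and 52.6% ± 0.232 in parental but 36.0% ± 0.476 in resistant libraries. AKR1C2 took 16.2% ± 0.0320 and 14.7% ± 0.415, and then 23.3% ± 0.149 and 34.2% ± 0.567. AKR1C3 went from 9.64% ± 0.104 of the members' counts in parental to 18.5% ± 0.166 in resistant libraries while its own level was slightly lower, because a share depends on the other members.

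Per kilobase of all annotated exons of a gene, AKR1B1 stood highest among the members in all 4 groups. The order among the AKR1C genes depends on the length chosen. Their exons cover 8765, 6461 and 4532 bases, while single transcripts of AKR1C1, AKR1C2 and AKR1C3 span 6705, 3756 and 1807. Reads that paralogs share also limit this comparison. With vector, AKR1B1 was at 1286 CPM per kilobase, AKR1C3 at 309.9, AKR1C2 at 249, AKR1C1 at 239, AKR1B10 at 35.1 and AKR1A1 at 13.8. The libraries of each neighbouring pair in that order were apart. With the plasmid the order was AKR1B1 at 1255 CPM per kilobase, AKR1C3 at 192 ± 4.34, AKR1C2 at 185 ± 4.32, AKR1C1 at 146, AKR1B10 at 96.0 and AKR1A1 at 10.9, and AKR1C3 and AKR1C2 overlapped. In parental cells AKR1C2 stood second at 386 CPM per kilobase, ahead of AKR1C3 at 228 and AKR1C1 at 149.95, and AKR1B10 was at 99.96. In resistant cells AKR1B1 was at 479 CPM per kilobase, AKR1C2 at 258, AKR1C3 at 199, AKR1C1 at 48.5, AKR1A1 at 27.2 and AKR1B10 at 21.9. Without the correction for length AKR1C1 instead stood above AKR1C2 and AKR1C3 with vector. The correction used here divides by annotated exons of 8765 bases for AKR1C1, against 6461 and 4532.

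**Figure D3:**
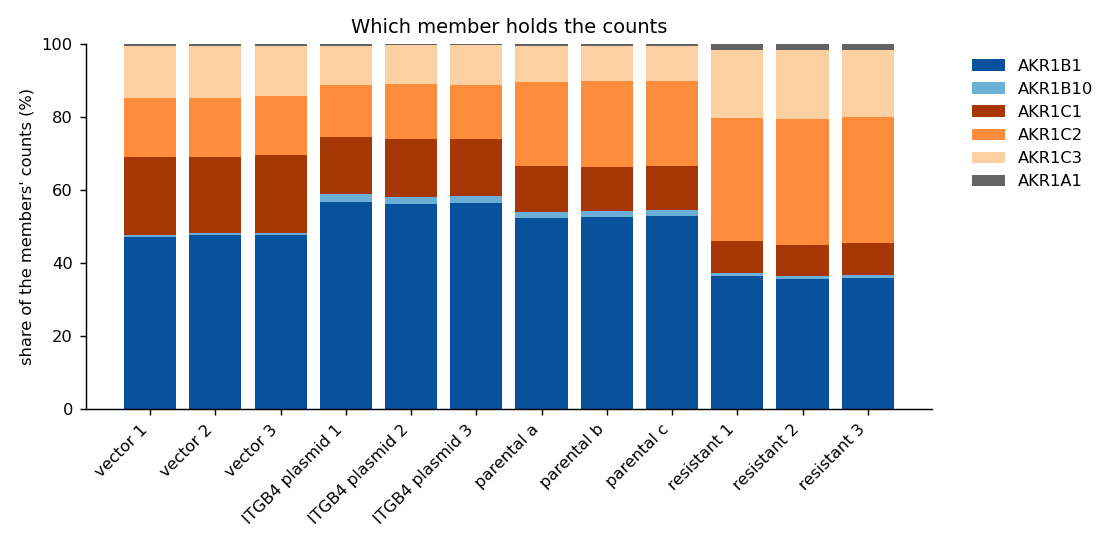
Bars give the share of each gene in the summed counts of the 7 genes, in percent, for each of the 12 libraries; AKR1B15 is too small to draw. AKR1B1 takes 47.5% with vector, 56.4% with the plasmid, 52.6% in parental and 36.0% in resistant libraries, on average.

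Ratios of paralog counts inside a library do not depend on how libraries are scaled. They do depend on how reads that paralogs share were assigned. The counter used for the cisplatin experiment is not given, so ratios are compared only within an experiment. AKR1C1 counts per AKR1C2 count were 1.30 ± 0.0156 with vector and 1.07 ± 0.0230 with the plasmid, and 0.527 ± 0.00801 in parental and 0.255 ± 0.00705 in resistant libraries. AKR1C1 was thus lower relative to AKR1C2 in both the plasmid and the resistant group, with no overlap of libraries in either experiment. AKR1C3 counts per AKR1C2 count were 0.874 ± 0.0252 and 0.727 ± 0.0318 in the plasmid experiment, and 0.414 ± 0.00668 and 0.542 ± 0.0108 in the cisplatin experiment. That ratio was lower with the plasmid and higher in resistant cells. AKR1B10 counts per 1000 AKR1B1 counts were 13.0 ± 0.516 with vector, 36.4 ± 0.297 with the plasmid, 30.9 ± 1.23 in parental and 21.8 ± 0.985 in resistant libraries.

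**Figure D4:**
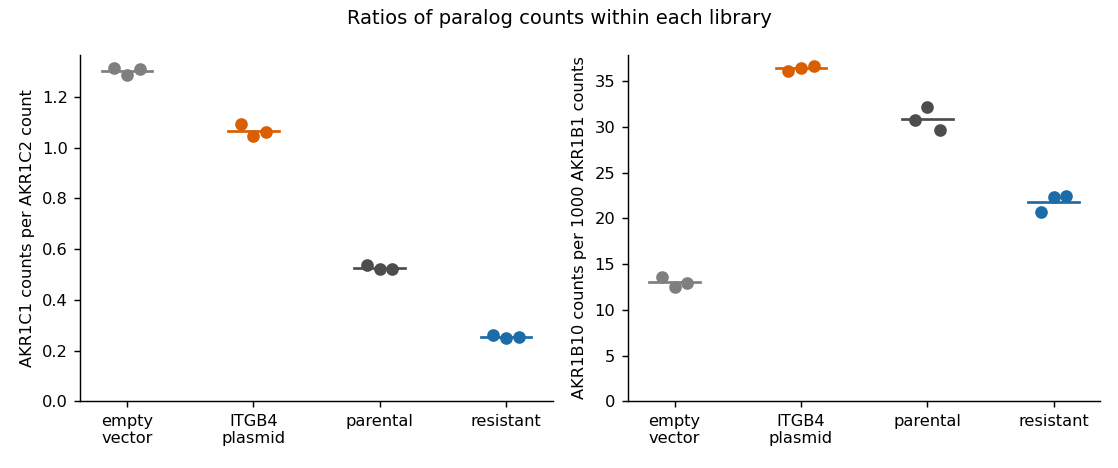
Points are libraries and bars group means of the ratio of AKR1C1 to AKR1C2 counts (left) and of AKR1B10 counts per 1000 AKR1B1 counts (right), on axes from 0. The experiments were counted separately, and their ratios are not compared with each other. The left ratio is 1.30 and 1.07 with vector and plasmid and 0.527 and 0.255 in parental and resistant cells; the right ratio goes up from 13.0 to 36.4 with the plasmid and is 30.9 and 21.8 in the cisplatin experiment.

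The promoters of AKR1C1 and AKR1C2, the pair hardest to tell apart in its coding bases, were nearly copies of each other too. RefSeq promoter entries (GRCh38.p14, 250 bases before to 50 after a start) matched 5 of the 7 members, with 7 entries in all, and those of AKR1C1 and AKR1C2 were 97.3% identical and shared a run of 245 bases. AKR1C3 has 2 entries, which were 76.2% and 75.0% identical to that of AKR1C1. The first part of the shared run, which holds no annotated exon base of either gene, is shown, 84 bases without a difference, for AKR1C1 at chr10:4963169-4963252 on the plus strand and for AKR1C2 at chr10:5004024-5004107 on the minus strand. The AKR1C1 stretch precedes the annotated gene, while that of AKR1C2 lies within it, since other AKR1C2 transcripts start farther upstream.
AKR1C1 and AKR1C2: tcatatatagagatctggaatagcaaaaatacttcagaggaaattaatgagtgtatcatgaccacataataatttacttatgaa
The core letters of the antioxidant response element to which NRF2 binds, TGACNNNGC with N for any base, were searched on both strands as the only motif. They occurred in 0 of the 7 entries and in 4687 of all 35116 promoters of that length (13.3%). This says only that these letters are not in these windows. AKR1B10 and AKR1B15 had no entry and were not searched, and the 2 entries of AKR1B1 overlap.

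Like the members, the gene lists in this and the following paragraphs were chosen with earlier results of these libraries known. Apart from NFE2L2 and KEAP1, genes named from them were picked for large fold changes among called genes. Their counts and adjusted p-values are therefore a description and not a test of a list. In the NRF2 lists, more transcripts were called lower than higher in both experiments. The regulators include NRF2 itself and genes that act against it, such as KEAP1. Their counts and median therefore give no direction of NRF2 activity. NFE2L2 fell from 432 ± 5.75 to 358 ± 2.17 CPM with the plasmid (log2 fold change -0.27 ± 0.024, adjusted p = 2.07e-08) and from 495 ± 5.56 to 403 ± 6.95 CPM in resistant cells (-0.30 ± 0.036, adjusted p = 1.74e-06). KEAP1 fell by 0.34 ± 0.034 (adjusted p = 1.2e-07) and by 0.24 ± 0.050 (adjusted p = 0.000482) on the log2 scale. The second of these calls was lost with library totals as the only scaling (-0.08). Of 9 regulators of NRF2, 1 rose and 6 fell with the plasmid, with a median log2 fold change of -0.286, against 0.00175 for all genes. In resistant cells 2 rose and 7 fell, with a median of -0.335 against 0.0181, or 2 and 6 with library totals as the only scaling (median -0.171). With the plasmid the small partner MAFF (-1.16 ± 0.031, adjusted p = 3.67e-15) and SQSTM1, an autophagy receptor that binds KEAP1 (-0.90 ± 0.024, adjusted p = 3.16e-15), fell, and MAFG was called slightly higher (0.08 ± 0.029, adjusted p = 0.0225). The MAFG call was lost in 4 other settings and without vector library 1 (0.07) or 3 (0.06) or plasmid library 3 (0.08), which leaves 0 regulators higher. In resistant cells BACH1, a repressor at the same elements (-0.67 ± 0.053, adjusted p = 9.93e-09), and MAFG (-0.52 ± 0.041, adjusted p = 7.3e-09) fell, while CUL3, the ubiquitin ligase scaffold that works with KEAP1 (0.20 ± 0.052, adjusted p = 0.00277), and NFE2L1 (0.09 ± 0.034, adjusted p = 0.0409) rose. The NFE2L1 call was lost with no filter on low counts (0.09) and without parental library a (0.09), b (0.08) or c (0.08) or resistant library 2 (0.10).

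Of 24 NRF2 targets outside the family, 3 rose, 20 fell and 1 was not called with the plasmid (median -0.457). Of 23 tested in the cisplatin experiment, 3 rose, 17 fell and 3 were not called (median -0.466), or 6 rose and 15 fell with library totals as the only scaling (median -0.303). Over all tested genes, 36.5% were called higher and 35.7% lower with the plasmid (median 0.00175). In the cisplatin experiment these shares were 26.8% and 27.7% (median 0.0181). With the plasmid the largest falls were those of GCLC, the catalytic subunit of glutathione synthesis (-1.80 ± 0.021, adjusted p = 1.49e-19), and SLC7A11, the cystine importer (-1.36 ± 0.046, adjusted p = 6.08e-14). ABCC2, a conjugate exporter (1.04 ± 0.15, adjusted p = 7.31e-06), and CBR1, a carbonyl reductase (0.50 ± 0.040, adjusted p = 7.06e-09), rose with the plasmid, as AKR1B10 was higher there. In resistant cells PGD of the pentose phosphate path (-1.43 ± 0.037, adjusted p = 5.51e-15) and TXNRD1, thioredoxin reductase (-1.07 ± 0.038, adjusted p = 2.71e-13), fell the most among targets of at least 1 CPM, and ABCC3 (0.75 ± 0.037, adjusted p = 1.55e-11) and the ferritin chain FTL (0.23 ± 0.041, adjusted p = 0.000123) rose. In the same comparison the members lay on both sides of the targets' median. AKR1B10 was at -2.19, AKR1B1 at -1.69, AKR1C1 at -1.63, AKR1B15 at -1.002, AKR1C2 at -0.58, AKR1C3 at -0.19 and AKR1A1 at 0.39.

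**Figure D5:**
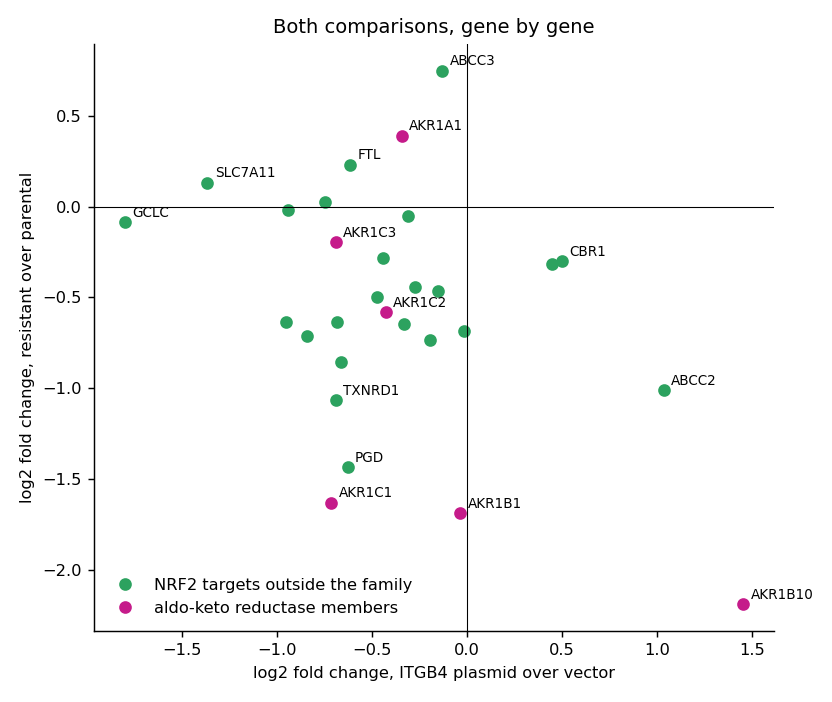
Each point is a gene, with its log2 fold change for plasmid over vector (x axis) and resistant over parental (y axis); pink points are aldo-keto reductases tested in both experiments and green points NRF2 targets outside the family. AKR1B10 lies at the lower right (1.45 and -2.19), and AKR1C1, AKR1C2 and AKR1C3 lie in the lower left with most of the green points.

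Of 7 other aldo-keto reductases, only 4 were tested with the plasmid and 3 in the cisplatin experiment, and some of them had few counts. AKR7A2, which reduces succinic semialdehyde, was called lower with the plasmid (-0.19 ± 0.079, adjusted p = 0.0447) and higher in resistant cells (0.36 ± 0.12, adjusted p = 0.0172), but libraries of the groups overlapped in both. It was the only call among 4 tested relatives with the plasmid (median -0.0689) and among 3 in the cisplatin experiment (median -0.14, or 0.0239 with library totals as the only scaling). Of all tested genes, 72.2% and 54.5% were called, and nothing is read from counts of so few relatives.

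The enzymes that share substrates with the members did not move as a block. For this list and those that follow, the shares of all tested genes serve for comparison. These were 36.5% higher and 35.7% lower with the plasmid, and 26.8% higher and 27.7% lower in the cisplatin experiment. Of 15 other carbonyl reductases and aldehyde dehydrogenases tested with the plasmid, 4 rose and 9 fell (median -0.709), and of 16 in the cisplatin experiment 10 rose and 3 fell (median 0.46), or 11 and 1 with library totals as the only scaling. DHRS2, a short-chain dicarbonyl reductase, fell from 25.5 ± 0.997 to 2.56 ± 0.512 CPM with the plasmid (-3.33 ± 0.093, adjusted p = 5.47e-15) and rose from 2.78 ± 0.454 to 33.2 ± 1.29 CPM in resistant cells (3.57 ± 0.11, adjusted p = 3.26e-14). ALDH1A1, which oxidises retinal to retinoic acid, also fell with the plasmid (-2.70 ± 0.069, adjusted p = 1.81e-15) and rose in resistant cells (1.90 ± 0.074, adjusted p = 8e-13). AKR1B10, which takes retinal the other way, had the opposite sign to ALDH1A1 in each experiment. With the plasmid ALDH3B1 (0.83 ± 0.14, adjusted p = 4.45e-05) and ALDH1B1 (0.58 ± 0.051, adjusted p = 2.27e-08) rose. In resistant cells PTGR1, a prostaglandin reductase (-1.13 ± 0.034, adjusted p = 3.33e-14), and CBR1 (-0.30 ± 0.083, adjusted p = 0.00544) fell. The CBR1 call was lost with library totals as the only scaling (-0.14).

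In the retinoid list 11 of 17 tested genes rose and 6 fell with the plasmid (median 0.396), and 2 of 16 rose and 12 fell in resistant cells (median -0.348), or 3 and 6 with library totals as the only scaling (median -0.184). DHRS9, a retinol dehydrogenase, rose from 2.40 ± 0.116 to 77.0 ± 1.57 CPM with the plasmid (5.01 ± 0.058, adjusted p = 1.08e-19) and fell in resistant cells (-1.10 ± 0.060, adjusted p = 6.2e-11). CRABP2, a retinoic acid carrier, rose with the plasmid (1.01 ± 0.14, adjusted p = 7.25e-06), and RDH10 fell in resistant cells (-0.86 ± 0.046, adjusted p = 4.73e-11). ALDH1A3 fell with the plasmid (-1.40 ± 0.029, adjusted p = 1.13e-16) and rose in resistant cells (1.85 ± 0.070, adjusted p = 5.64e-13), as ALDH1A1 did.

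In the steroid list, where the AKR1C enzymes act, 6 of 18 tested genes rose and 9 fell with the plasmid (median -0.15), and 6 of 18 rose and 4 fell in resistant cells (median 0.053), or 9 and 3 with library totals as the only scaling (median 0.217). STS, steroid sulfatase, rose with the plasmid (1.17 ± 0.031, adjusted p = 2.23e-15) and fell in resistant cells (-1.56 ± 0.042, adjusted p = 8.46e-15). SULT2A1, which adds sulfate to steroids, went the other way, from 7.44 ± 0.696 to 1.05 ± 0.162 CPM with the plasmid (adjusted p = 8.96e-12) and from 0.135 ± 0.0399 to 7.59 ± 0.414 CPM in resistant cells (adjusted p = 2.39e-12). The sulfotransferase SULT1A1 fell with the plasmid (-0.97 ± 0.13, adjusted p = 5.69e-06) and the estrogen receptor ESR2 rose (0.51 ± 0.11, adjusted p = 0.000843). In resistant cells HSD11B2, which inactivates cortisol, rose (0.99 ± 0.17, adjusted p = 0.000109) and HSD17B11 fell (-1.01 ± 0.060, adjusted p = 2.38e-10).

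In the prostaglandin list 8 of 10 tested genes rose and 1 fell with the plasmid (median 0.362), and 0 of 9 rose and 8 fell in resistant cells (median -0.65), or 0 and 5 with library totals as the only scaling. PTGS2, the inducible cyclooxygenase, fell in both (-0.80 ± 0.035, adjusted p = 2.34e-12, and -2.17 ± 0.050, adjusted p = 1.7e-15). AKR1C3 was lower in both too, but its call in resistant cells was lost with library totals as the only scaling (-0.03). PTGES, a prostaglandin E synthase (0.73 ± 0.028, adjusted p = 3.49e-13), and HPGD, which inactivates prostaglandins (0.68 ± 0.033, adjusted p = 8.96e-12), rose with the plasmid. PLA2G4A, the phospholipase that frees arachidonic acid, fell in resistant cells (-1.27 ± 0.16, adjusted p = 2.37e-06).

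In the list of the polyol, fructose and glucuronate path, around AKR1B1 and AKR1A1, 6 of 12 tested genes rose and 5 fell with the plasmid (median 0.207), and 4 of 12 rose and 6 fell in resistant cells (median -0.119). With library totals as the only scaling, that last median was 0.0453, with 6 higher and 6 lower. SORD, which turns the sorbitol made by AKR1B1 into fructose, fell in resistant cells from 289 ± 2.65 to 167 ± 5.12 CPM (-0.79 ± 0.040, adjusted p = 2.84e-11), where AKR1B1 was lower too. UGDH, which makes UDP-glucuronate, fell there as well (-0.73 ± 0.038, adjusted p = 3.49e-11), while XYLB rose (1.02 ± 0.16, adjusted p = 4.5e-05). The aldolase ALDOC rose in both experiments (2.88 ± 0.073, adjusted p = 1.51e-15, and 1.26 ± 0.27, adjusted p = 0.000731). With the plasmid the hexokinase HK2 rose (1.74 ± 0.026, adjusted p = 2.17e-18), and KHK, fructokinase (-0.84 ± 0.22, adjusted p = 0.00301), and DCXR, xylulose reductase (-0.80 ± 0.053, adjusted p = 5.87e-10), fell.

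The genes whose values over the 12 libraries lay nearest to each member were ranked among 11623 protein-coding candidates. The measure was the root mean square difference of log2 CPM, each experiment centred on its control group, so a small value means that both fold changes and the spread are alike. Among so many candidates some can lie near any member. No baseline was drawn, and shared regulation was not tested. The nearest to AKR1B10 was SLPI, at 0.118 and with log2 fold changes of 1.35 and -2.01, followed by CLEC7A at 0.146 and OLR1 at 0.154. AKR1B1 lay nearest to TROAP at 0.088 and CCNA2 at 0.11. AKR1C1 lay nearest to PRR11, at 0.06 and with fold changes of -0.69 and -1.63, then to CCNB1 at 0.0678 and TNFAIP3 at 0.0694. AKR1C2 lay nearest to INVS at 0.0389, CTSC at 0.0402 and CDKN1B at 0.0417, and AKR1C3 to TLE3 at 0.0433, FAM149A at 0.0548 and CCNJL at 0.0601. AKR1A1 lay nearest to MCRIP2 at 0.0502, RPS20 at 0.0522 and RPL10A at 0.0524.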

How the data were processed

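Gene counts of 12 RT4 libraries were taken from 2 tables, which hold raw whole-number counts as the authors deposited them. Per the file headers, read pairs of the plasmid experiment were counted over exons with featureCounts 2.0.1 and the Ensembl 107 annotation of GRCh38, with no strand option, so overlapping genes on opposite strands cannot be told apart. The submitters' processing notes name hg38 as the build. For the cisplatin table the counter and annotation, and for both tables the aligner's version, remain not given in the sources used here. Per the labels' protocols the kit marks strand.

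The members and gene lists were chosen with earlier results of these data known. Groups came from sample titles. The parental columns are headed NC1 to NC3 and were taken as parental from their table. Their log2 CPM correlated at 0.82 to 0.823 with vector libraries and at no less than 0.998 among themselves. No replicates agreed within sampling noise (chi-square per degree of freedom 1.544 to 12.18 over genes). In the plasmid experiment libraries with the same number did not deviate together (correlations of -0.0433 to -0.0667), so the numbers were not treated as pairs.

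Each experiment was fitted separately over all genes with edgeR 4.0.16 in R 4.3.3 (filterByExpr, TMM factors, quasi-likelihood test), with Benjamini-Hochberg adjustment over 16950 and 16875 tested genes and calls at an adjusted p under 0.05. The approximate standard error is the size of the log2 fold change divided by the square root of the F statistic. The common biological coefficient of variation was 2.65% and 6.97%. The procedure was tested on simulated data. Alternatives were DESeq2 1.42.0, its size factors, library totals alone, other filters, a replicate block and leaving out each library. Symbols matched 61757 of 61860 and 62700 of 62700 identifiers. Lengths, coding sequences and positions are those of GENCODE 29, and alignments used Biopython 1.88.

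All 7 members are named, with NFE2L2, KEAP1 and AKR1C4. From each list up to 2 called genes per direction with the largest fold change and a mean of at least 1 CPM are named, and for each member the 3 nearest genes. A gene that this rule takes is not reported here.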

Additional observations from a re-analysis of the deposited data

How the results depend on the processing

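No log2 fold change of a tested member, of NFE2L2 or KEAP1 or of a gene named from the lists changed sign in any alternative; the nearest-pattern genes and ITGB4 were not refitted. In the plasmid experiment AKR1B10 kept its call in all 12 alternatives (log2 fold change 1.41 to 1.47), as did AKR1C1 (-0.75 to -0.70), AKR1C2 (-0.47 to -0.41), AKR1C3 (-0.73 to -0.67) and AKR1A1 (-0.40 to -0.30). In the cisplatin experiment AKR1B1 (-1.72 to -1.52), AKR1B10 (-2.21 to -2.02), AKR1C1 (-1.66 to -1.47), AKR1C2 (-0.59 to -0.42) and AKR1A1 (0.35 to 0.55) kept theirs in all 11. With library totals as the only scaling, 3111 genes were called lower in resistant cells, against 4679, and 67.8% of calls were higher, against 49.1%. The AKR1B15 call was lost with that scaling (-0.84) and with DESeq2 (-1.01) as well as without the libraries named above. Leaving out each library, the plasmid comparison called 11696 to 12389 genes, with 4 to 5 members lower, and the cisplatin comparison 8331 to 9024, with 5 to 6 members lower.

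Among the lists, library totals as the only scaling changed by over 1.5 times the resistant counts of NRF2 targets higher (6), other carbonyl reductases and aldehyde dehydrogenases lower (1), retinoid genes lower (6) and prostaglandin genes lower (5), and by 1.5 times or less those of steroid genes (9 higher, 3 lower), polyol genes (6 higher) and NRF2 regulators (6 lower), among others. With the plasmid, 0 of the NRF2 regulators were higher with library totals, with no filter, with a filter at 1 CPM and with DESeq2, and 0 other aldo-keto reductases were lower with DESeq2. In resistant cells 1 NRF2 regulator was higher with no filter. Leaving out each library gave, with the plasmid, 0 to 2 NRF2 regulators higher, 0 to 1 other aldo-keto reductases higher and 0 to 1 lower, and in resistant cells 0 to 1 other aldo-keto reductases higher and 1 to 2 NRF2 regulators higher.

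Calls of 3 small differences rested on single libraries or settings. AKR7A2 lost its call with the plasmid without vector library 2 (-0.13) or 3 (-0.15) or plasmid library 2 (-0.14) or 3 (-0.21) and with DESeq2 (-0.18), and in resistant cells without parental a (0.35) or c (0.29) or resistant 1 (0.31) or 2 (0.30). MAFG with the plasmid lost its call without vector library 1 (0.07) or 3 (0.06) or plasmid library 3 (0.08), with library totals (0.04), with no filter (0.07), with a filter at 1 CPM (0.06) and with DESeq2 (0.08). NFE2L1 in resistant cells lost its call without parental a (0.09), b (0.08) or c (0.08) or resistant 2 (0.10) and with no filter (0.09).

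With the replicate number as a block, the plasmid comparison called 12070 genes, against 12234, and AKR1B10 stood at 1.45, AKR1C1 at -0.71 and AKR1B1 at -0.03, with the same calls of members. The numbers did not pair these libraries. No paired analysis was possible for the cisplatin experiment because the parental columns carry no sample number. The low counts of AKR1B15 limit what can be said of it.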
